A study of Selenicereus undatus with 4 samples.

Results

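Plant cells move sugars and water across their membranes through several families of channel and carrier proteins, and 35 of the 11051 unigenes in the deposited comparison of NL and L2 pitaya plants were annotated to these families. They were taken by words in the annotation, namely SWEET, sugar transport, sugar carrier, sucrose transport, hexose carrier or transport, monosaccharide, polyol or inositol transporter, sugar transporter ERD6 and aquaporin. The words use no expression value, but they were chosen with earlier results of these data known. The table itself holds only genes that the authors had called differentially expressed between NL and L2, at an FDR up to 0.05 and a log2 ratio beyond 1 in either direction. Of the 35 unigenes, 29 were sugar carriers and 6 were aquaporins. Carriers that were not called changed are absent, so ranks, sums and shares below cover the listed unigenes and not whole families.

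The plants were "Jindu No.1" red-fleshed pitaya, 1 year old and grown in the field. RNA was sequenced from tissue around the thorn seat near the top of the stem. The paper also states that buds of similar size were sought at each sampling stage. How much bud tissue the L2 libraries held is not stated. NL plants received no supplementary light and did not flower, and L2 plants received 5 h of supplementary light every night and were sampled 1 week after the bud stage. Each stage had 3 libraries, which were biological replicates made from a mix of 4 plants each. NL and L2 differed in light and in bud development at once, so the contribution of either cannot be told apart. Levels are given as RPKM, the reads scaled to the length of the unigene and to the total of the library. Comparisons between libraries also depend on the scaling, as described below.

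SWEET proteins let sugars pass in either direction along their gradient and are known in Arabidopsis for phloem loading and nectar secretion. Sucrose transport proteins, sugar transport proteins (STP) and most polyol and inositol carriers use the proton gradient to bring solutes into the cytosol, while monosaccharide-sensing proteins and ERD6-like carriers belong to the vacuole membrane. Aquaporins are water channels, named after the membrane they occupy in the plasma membrane (PIP) and tonoplast (TIP) groups, and the NIP group also passes small uncharged solutes such as boric acid.

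Each NL library held 3860701 to 5269237 reads, each L2 library held 5803177 to 7533457, and 1 read on a 1 kb unigene was worth 0.190 to 0.259 RPKM in the former and 0.133 to 0.172 in the latter. The 35 unigenes were 545 to 4213 nt long with a median of 1868 nt, and 3 of them were shorter than 1000 nt. The best match was a protein of Beta vulgaris subsp. vulgaris for 30 of them, so that names rest on other species. Altogether 17 of the unigenes shared 8 annotations. How similar their sequences are was not examined, and any reads that fitted several of them would make their levels uncertain.

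Markers of other tissues and of dividing cells also differed between the stages. By limma at an adjusted p of at most 0.05, 63.0% of all listed genes were up-regulated in L2 and 36.3% down-regulated. Of 19 listed chlorophyll a-b binding protein genes, which mark green tissue, 17 were down-regulated in L2 and none was up-regulated, and their summed RPKM was 3605 to 4640 in NL and 639 to 1532 in L2. Of 16 listed MADS-box genes of floral organs and their relatives, 12 rose and 4 fell, with sums of 100.4 to 125 in NL and 332 to 436 in L2, and Unigene0047380 (SEPALLATA 1) and Unigene0003257 (AGL11) had no reads in NL. All 12 listed core histone genes were up-regulated, with sums of 269.8 to 360.3 in NL and 716 to 1231 in L2. In such bulk samples, fewer cells of a type and less RNA per cell cannot be told apart. The part of these shifts in the results below was not tested.

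Of the 35 unigenes, 29 rose and 5 fell in L2 at an adjusted p of at most 0.05 (limma on log2(RPKM + 0.1), two-sided, adjusted over all listed genes). The remaining one, the SWEET-type gene Unigene0051234, missed the threshold. Without any 1 of the 6 libraries 27 to 29 rose and 4 to 5 fell. The same test called 63.0% of all listed genes up-regulated and 36.3% down-regulated, 99.3% together, so passing it says nothing about these unigenes. By the ratio of mean RPKM, 30 of 35 (85.7%) were higher in L2, compared with 63.4% of all listed genes, and the median log2 ratio was 1.97 compared with 1.44. The RPKM ranges of the stages lay apart in 34 of 35 unigenes (97.6% of all listed genes), of which 29 were higher in L2 (62.0% of all). The rises reached farther than the falls. Of the unigenes, 17 were at least 4-fold higher in L2 (36.1% of all listed genes, and 58.4% with those 4-fold lower), whereas none was 4-fold lower, and the 5 falls lay between 2.65-fold and 3.36-fold.

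The size of the rises depends on the scaling. TMM factors and DESeq2 size factors, which assume that most tested genes are unchanged, differed between the stages by 0.85 and 1.08 on the log2 scale. Upper quartile scaling differed by 0.50, and each of them lowered L2 against NL. All were computed from the listed genes alone, which the authors had called changed and of which 63.4% were higher in L2. The assumption is thus not met, and a rise whose call is lost with these factors is not thereby shown to be unstable. Fitted log2 ratios of genes with few reads did not all move by these amounts. DESeq2 called 17 of the 35 unigenes up-regulated and 5 down-regulated, beside 25.2% and 36.4% of all listed genes (61.6% together). With edgeR and TMM factors 20 rose and 5 fell, beside 38.6% and 36.6% of all listed genes (75.2% together). With edgeR and plain library totals 30 rose and 5 fell, beside 63.4% and 36.6% of all listed genes (100% together).

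**Figure D1:**
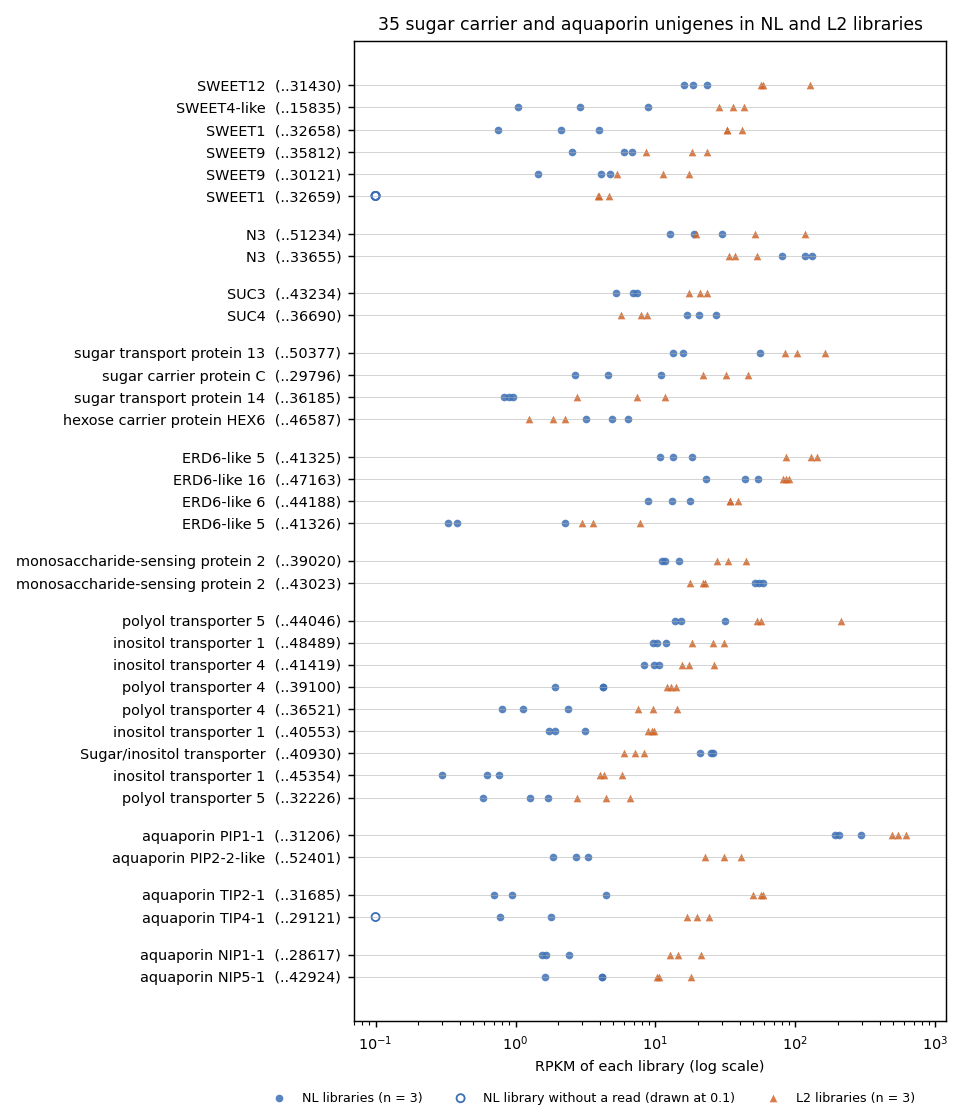
RPKM of the 35 unigenes in each NL library (circles) and L2 library (triangles) on a log axis, grouped by family, with the last 5 digits of the unigene number in brackets. An open circle at the left edge marks a library without a read; in most rows the triangles lie to the right of the circles, and in 5 rows all of them lie to the left.

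Among the listed SWEET genes, the pattern was a single abundant gene giving way to several. Of the 6 unigenes named SWEET all were up-regulated in L2, while of the 2 unigenes named bidirectional sugar transporter N3 one was down-regulated and the other did not pass. N3 is an older name of this family, and the symbol column of the table gives both as SWEET14. The same symbol stands for Unigene0031430, annotated as SWEET12, and the symbol of the SWEET4-like Unigene0015835 is SWEET6B. Names below follow the annotation, and which is right was not tested.

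The N3 gene Unigene0033655 was the most abundant of the listed sugar carriers in NL. Its RPKM was 117, 80.9 and 131 in the NL libraries and 36.9, 53.3 and 33.8 in the L2 libraries. The stages did not overlap, and its mean fell from 109 ± 25.7 (SD, n = 3) to 41.3 ± 10.5 (SD, n = 3), a log2 change of -1.40 ± 0.25 (SE, limma, adjusted p = 0.00123). The N3 gene Unigene0051234 had 18.8, 12.6 and 30.0 in NL and 19.5, 51.2 and 118 in L2. Here the lowest L2 library lay within the range of NL, and 62.5% of the L2 sum came from replicate 3. Its log2 change was 1.35 ± 0.61 (SE, limma, adjusted p = 0.0615). Without L2 replicate 1 it was 2.01 and passed (adjusted p = 0.0151, limma), without L2 replicate 3 it was 0.71, and edgeR with plain library totals passed it as well (adjusted p = 0.00718).

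SWEET12 (Unigene0031430), whose Arabidopsis namesake exports sucrose for phloem loading, had RPKM values of 16.0, 18.6 and 23.4 in NL and 58.3, 56.4 and 127 in L2. It rose from 19.3 ± 3.74 to 80.6 ± 40.2 (SD, n = 3), with a log2 change of 1.96 ± 0.33 (SE, limma, adjusted p = 9.42e-04), and its mean was the highest of the SWEET genes in L2, where it overlapped with Unigene0051234. Its L2 libraries were spread by the high replicate 3, but the lowest of them still lay above the highest NL library.

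SWEET4-like (Unigene0015835) had 1.04, 8.83 and 2.88 in NL and 28.5, 35.6 and 43.0 in L2. Its mean rose 8.40-fold, with a log2 change of 3.50 ± 0.66 (SE, limma, adjusted p = 0.00158). The NL libraries were uneven, and the log2 change was 2.78 without NL replicate 1 and 4.26 without NL replicate 2.

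SWEET1 was represented by 2 unigenes with consecutive numbers. Unigene0032658 had 0.745, 2.10 and 3.97 in NL and 32.6, 32.5 and 41.8 in L2, so that its mean rose 15.7-fold, with a log2 change of 4.18 ± 0.53 (SE, limma, adjusted p = 2.58e-04) or 3.57 without NL replicate 1. Unigene0032659 had no reads in any NL library and 85 reads in L2, at 3.97, 3.87 and 4.67 RPKM. Against a floor of 3 reads over the NL libraries it was at least 20.3-fold higher in L2, where counting error alone is covered. In L2 the first SWEET1 unigene lay 8.21, 8.39 and 8.96 times above the second in replicates 1, 2 and 3, a ratio that hardly varied. Whether they are parts of 1 locus was not tested.

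SWEET9, known for nectar secretion in Arabidopsis, also had 2 unigenes, for both of which the table gives the symbol NEC1. Unigene0030121 had 4.06, 4.77 and 1.46 in NL and 5.29, 11.4 and 17.4 in L2, and Unigene0035812 had 5.91, 6.76 and 2.54 in NL and 18.2, 8.63 and 23.4 in L2. The stages lay close in both, with the lowest L2 library just above the highest NL library. Their log2 changes were 1.70 and 1.70 (standard errors 0.58 and 0.49, adjusted p = 0.0208 and 0.0103, limma). Neither call was stable. That of Unigene0030121 was lost without L2 replicate 2, L2 replicate 3 or NL replicate 3 (adjusted p = 0.0737, 0.0924 and 0.0623), and that of Unigene0035812 without L2 replicate 1 or L2 replicate 3 (adjusted p = 0.0546 and 0.0509, limma). Both calls were also lost with edgeR and TMM (adjusted p = 0.121 and 0.0687) and with DESeq2 (adjusted p = 0.308 and 0.229).

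The summed RPKM of these 8 genes was 164, 135 and 195 in NL and 203, 253 and 409 in L2, 1.76-fold higher in the mean. The abundant N3 gene Unigene0033655 made up 60.1% to 71.5% of the sum in the NL libraries and 8.26% to 21.1% in the L2 libraries. SWEET12 made up 9.80% to 13.8% in NL and 22.3% to 31.0% in L2. Without Unigene0033655 the log2 ratio of the sums was 2.17 in place of 0.81. With all 8 genes and upper quartile scaling, taken from the listed genes alone, it was 0.30.

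**Figure D2:**
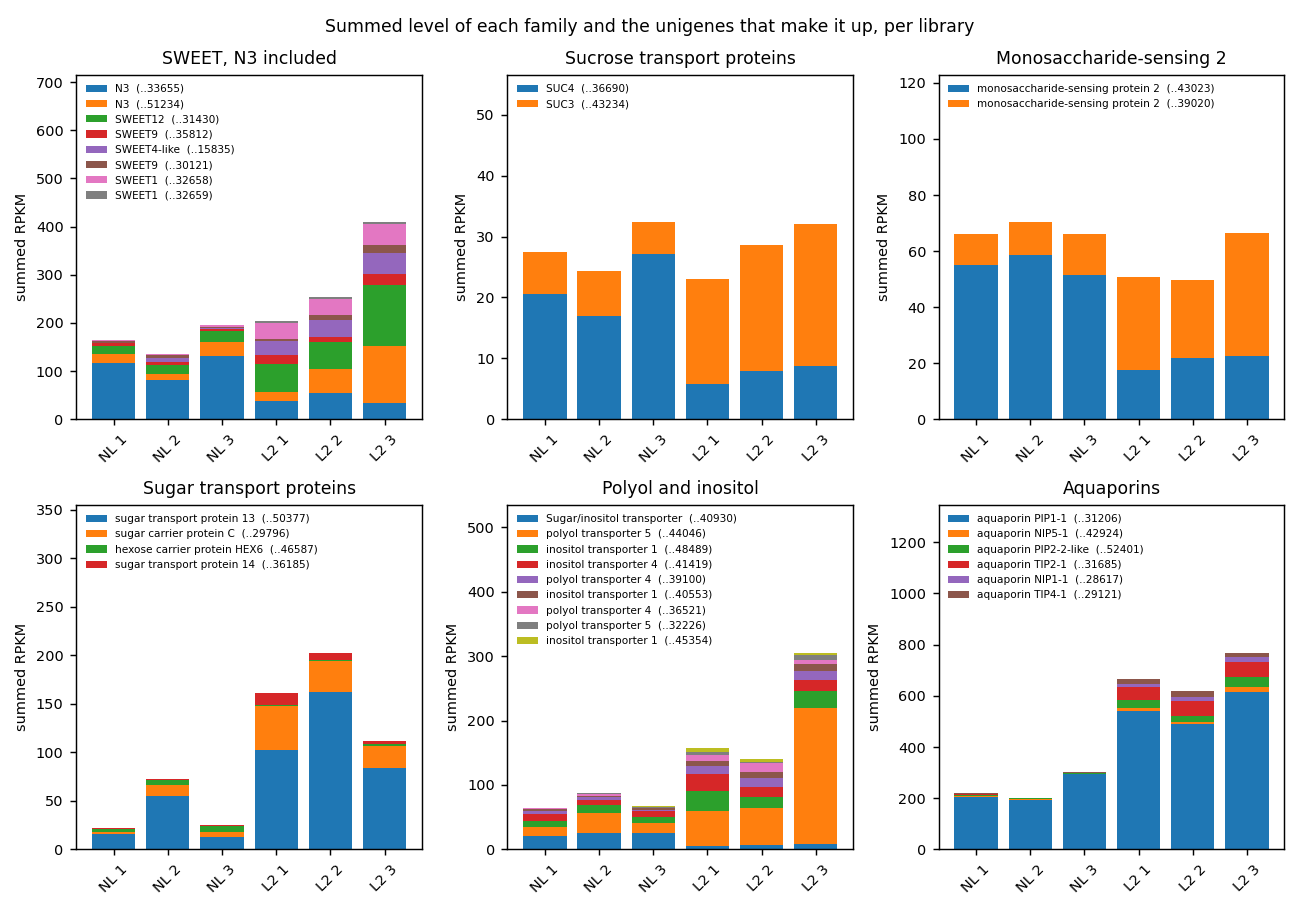
Summed RPKM of 6 groups of carriers in each library (bars), with each unigene as a coloured part of the bar and the last 5 digits of its number in brackets. The sums of the sucrose transport proteins and monosaccharide-sensing proteins overlap between stages while the larger part changes from 1 unigene to the other, and in the SWEET panel the N3 gene that dominates NL is a minor part in L2.

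The listed sucrose transport proteins exchanged rank while their sums overlapped. SUC4 (Unigene0036690), whose Arabidopsis namesake releases sucrose from the vacuole, had RPKM values of 20.5, 16.9 and 27.1 in NL and 5.72, 7.90 and 8.69 in L2. It fell from 21.5 ± 5.19 to 7.43 ± 1.54 (SD, n = 3), a log2 change of -1.52 ± 0.27 (SE, limma, adjusted p = 0.00114). SUC3 (Unigene0043234), a plasma membrane sucrose carrier in Arabidopsis, had 6.92, 7.44 and 5.20 in NL and 17.4, 20.8 and 23.4 in L2. It rose from 6.52 ± 1.17 to 20.5 ± 3.04 (SD, n = 3), a log2 change of 1.64 ± 0.24 (SE, limma, adjusted p = 4.72e-04). SUC4 thus made up 69.4% to 83.9% of the summed RPKM in NL and 24.8% to 27.6% in L2, while the sum was 24.3 to 32.3 in NL and 23.1 to 32.1 in L2.

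The monosaccharide-sensing protein 2 genes, whose Arabidopsis relatives load sugars into the vacuole in exchange for protons, did the same within 1 annotation. Unigene0043023 had 55.0, 58.7 and 51.4 in NL and 17.6, 22.0 and 22.5 in L2, the third highest level of these unigenes in NL. It fell 2.65-fold, with a log2 change of -1.41 ± 0.17 (SE, limma, adjusted p = 2.05e-04). Unigene0039020 had 11.1, 11.6 and 14.6 in NL and 32.9, 27.5 and 44.1 in L2, and rose 2.80-fold, with a log2 change of 1.46 ± 0.23 (SE, limma, adjusted p = 7.02e-04). With DESeq2's size factors this rise no longer passed (adjusted p = 0.176). The share of Unigene0043023 in the summed RPKM was 77.8% to 83.5% in NL and 33.8% to 44.4% in L2, and the sum was 66.0 to 70.3 in NL and 49.5 to 66.6 in L2.

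These exchanges can be read within each library, where the ratio of 2 unigenes needs no scaling between libraries. SUC4 lay 2.97, 2.27 and 5.22 times above SUC3 in the NL libraries, and 0.329, 0.380 and 0.371 times in the L2 libraries. Unigene0039020 stood at 0.201, 0.198 and 0.285 of Unigene0043023 in NL and at 1.87, 1.25 and 1.96 in L2. The N3 gene Unigene0033655 was 6.22, 6.41 and 4.35 times as abundant as Unigene0051234 in NL and 1.89, 1.04 and 0.287 times in L2. For each of these pairs the ratios of the stages did not overlap, and the mean log2 ratio changed by -3.19, 2.89 and -2.75. Of 10 such pairs within an annotation or between SUC4 and SUC3, 5 had ratios that did not overlap. For these the exact permutation test gave p = 0.10 (two-sided), the smallest value that 3 libraries against 3 allow, and 0.20 after Benjamini-Hochberg adjustment over the 10 pairs. The pair of SUC4 and SUC3 was added after its values had been seen. All listed genes had passed a log2 ratio beyond 1 on these same libraries. Pairs moving in opposite directions were thus bound to change their ratio. For them the ratios and the test are a description and no independent evidence.

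**Figure D3:**
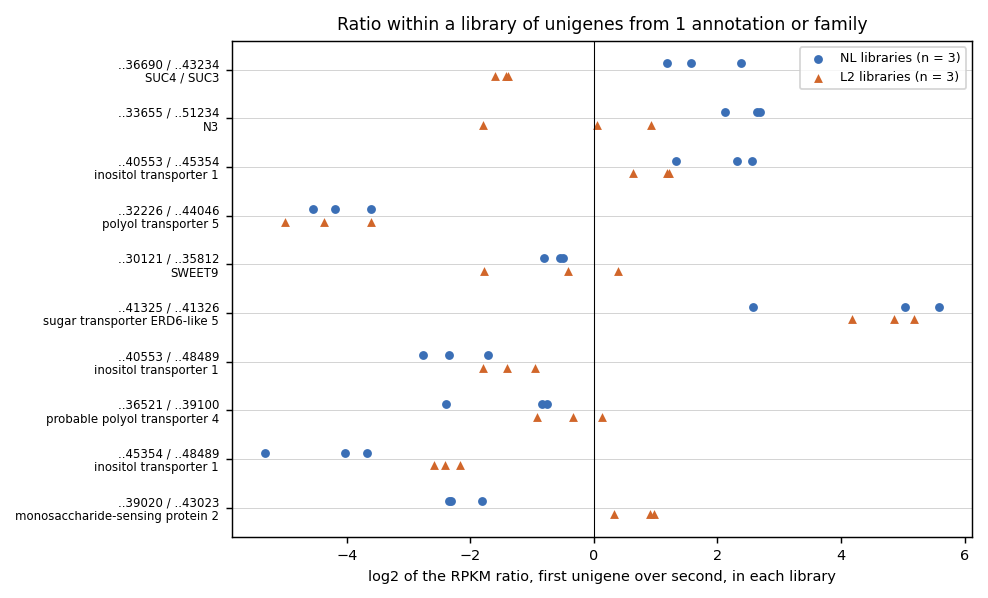
Log2 of the RPKM ratio of 2 unigenes in each library, for NL (circles) and L2 (triangles), with the last 5 digits of both numbers and the annotation at the left. In L2 the SUC4 / SUC3 pair lies to the left of 0 and the monosaccharide-sensing protein 2 pair to the right. The N3 pair shifts to the left, but only L2 replicate 3 lies below 0. The polyol transporter 5, SWEET9 and ERD6-like 5 pairs overlap.

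The STP genes import hexoses from the cell wall space. STP13 (Unigene0050377), a hexose carrier that pathogens induce in Arabidopsis, had RPKM values of 15.6, 55.5 and 13.3 in NL and 102, 162 and 84.2 in L2. It rose from 28.1 ± 23.7 to 116 ± 40.6 (SD, n = 3), a log2 change of 2.30 ± 0.53 (SE, limma, adjusted p = 0.00391). NL replicate 2 stood apart, and without it the log2 change was 2.95. This call was lost with DESeq2's factors (adjusted p = 0.0648).

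Sugar carrier protein C (Unigene0029796), named after a hexose carrier of castor bean, had 2.68, 11.0 and 4.61 in NL and 45.7, 31.8 and 21.9 in L2. Its mean rose 5.44-fold, with a log2 change of 2.60 ± 0.51 (SE, limma, adjusted p = 0.00187), and NL replicate 2 was again the highest NL library. STP14 (Unigene0036185), a galactose carrier in Arabidopsis, had 0.960, 0.902 and 0.826 in NL and 11.6, 7.35 and 2.77 in L2. It rose 8.09-fold, with a log2 change of 2.66 ± 0.58 (SE, limma, adjusted p = 0.00311).

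The hexose carrier HEX6 (Unigene0046587) moved the other way, from 3.19, 4.89 and 6.33 in NL to 1.25, 1.84 and 2.28 in L2. It had 106 reads over NL and 53 over L2, and its log2 change was -1.36 ± 0.45 (SE, limma, adjusted p = 0.0186). Without NL replicate 3 it was -1.14 and did not pass (adjusted p = 0.0621). The sum over the 4 genes was 22.5, 72.3 and 25.0 in NL and 161, 203 and 111 in L2, with a log2 ratio of 1.99, or 2.74 without NL replicate 2.

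All 4 ERD6-like unigenes were up-regulated, compared with 63.0% of all listed genes. This family is thought to release sugars from the vacuole in Arabidopsis. ERD6-like 5 (Unigene0041325) had 18.3, 13.4 and 10.8 in NL and 142, 129 and 86.0 in L2. It rose from 14.2 ± 3.79 to 119 ± 29.3 (SD, n = 3), with a log2 change of 3.06 ± 0.26 (SE, limma, adjusted p = 6.37e-05). Its mean was the highest of the listed sugar carriers in L2, although STP13 was higher in replicate 2 and polyol transporter 5 in replicate 3. The call held under every alternative setting run.

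The neighbouring Unigene0041326, 578 nt long and also annotated as ERD6-like 5, had only 7 reads over NL and 56 over L2. Its RPKM was 0.382, 2.24 and 0.328 in NL and 7.81, 3.58 and 2.98 in L2, a log2 change of 2.51 ± 0.77 (SE, limma, adjusted p = 0.0137). Without NL replicate 2 it was 3.30, and without L2 replicate 1 it was 2.10 and did not pass (adjusted p = 0.0658). It did not pass with edgeR and TMM or with DESeq2 either (adjusted p = 0.112 and 0.265).

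ERD6-like 16 (Unigene0047163), the leading gene of this family in NL, had 53.7, 43.4 and 22.8 in NL and 89.4, 81.1 and 86.1 in L2. ERD6-like 6 (Unigene0044188) had 13.1, 8.83 and 17.7 in NL and 38.9, 34.2 and 34.3 in L2. The L2 libraries of both lay close together, and the log2 changes were 1.18 and 1.48 (standard errors 0.30 and 0.26, adjusted p = 0.00623 and 0.00121, limma). Neither passed with TMM or DESeq2 factors. The share of ERD6-like 5 (Unigene0041325) in the summed RPKM of the family was 19.8% to 21.4% in the NL libraries and 41.1% to 52.0% in the L2 libraries.

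Of the 9 polyol and inositol carriers, 8 were up-regulated and 1 was down-regulated, compared with 63.0% and 36.3% of all listed genes. Polyol transporter 5 (Unigene0044046), a proton-coupled carrier of sugar alcohols in Arabidopsis, had RPKM values of 13.7, 31.4 and 15.3 in NL and 53.4, 56.5 and 212 in L2. L2 replicate 3 alone held 65.8% of its L2 sum. Its log2 change was 2.19 ± 0.56 (SE, limma, adjusted p = 0.0061), and 1.55 without that library (adjusted p = 0.0121).

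The other polyol transporter 5 (Unigene0032226) lay far lower, at 0.586, 1.72 and 1.26 in NL and 4.40, 2.74 and 6.63 in L2. Probable polyol transporter 4 had 2 unigenes. Unigene0036521 had 0.805, 2.36 and 1.12 in NL and 9.62, 14.1 and 7.46 in L2, and Unigene0039100 had 4.22, 4.23 and 1.91 in NL and 12.2, 12.9 and 14.1 in L2. None of these overlapped between the stages, and their log2 changes were 1.89, 2.86 and 1.97 (adjusted p = 0.0122, 9.93e-04 and 0.00141, limma). Unigene0032226 did not pass with TMM or DESeq2 factors.

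Inositol transporter 1, a vacuolar inositol carrier in Arabidopsis, was annotated for 3 unigenes. All of them were up-regulated, compared with 63.0% of all listed genes. The most abundant, Unigene0048489, had 10.3, 11.8 and 9.69 in NL and 30.8, 18.2 and 25.8 in L2. Unigene0040553 had 3.14, 1.74 and 1.91 in NL and 8.89, 9.38 and 9.73 in L2, and Unigene0045354 had 0.631, 0.296 and 0.759 in NL and 5.77, 4.04 and 4.28 in L2. The rise was the larger the lower the level in NL, with 2.35-fold, 4.13-fold and 8.35-fold differences of the means. Their log2 changes were 1.20, 2.04 and 2.91 (standard errors 0.24, 0.35 and 0.51, adjusted p = 0.00213, 9.73e-04 and 0.00113, limma), but Unigene0048489 did not pass with TMM or DESeq2 factors.

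Inositol transporter 4 (Unigene0041419), a plasma membrane carrier in Arabidopsis, had 10.6, 8.30 and 9.74 in NL and 26.4, 15.4 and 17.3 in L2. Its log2 change of 1.00 ± 0.26 (SE, limma, adjusted p = 0.00635) was the smallest of the rises that passed, and with DESeq2's size factors it turned to -0.035. Unigene0040930, annotated only as sugar/inositol transporter, had 20.8, 25.8 and 25.1 in NL and 5.94, 7.10 and 8.31 in L2. It fell 3.36-fold, the largest fall among the 35 unigenes, with a log2 change of -1.74 ± 0.22 (SE, limma, adjusted p = 2.46e-04).

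**Figure D4:**
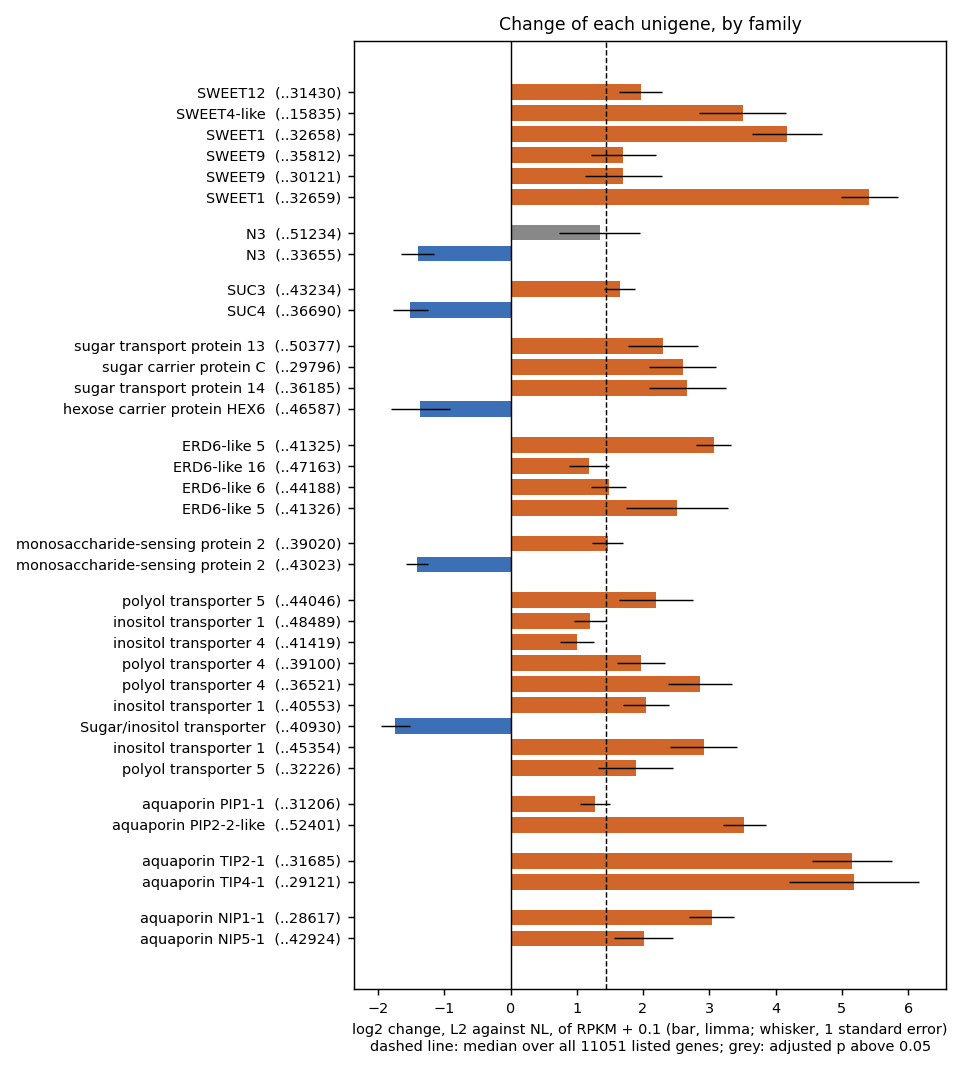
Log2 change of each unigene in L2 against NL (bars, limma on log2(RPKM + 0.1), whiskers 1 standard error), with orange for up-regulated, blue for down-regulated and grey for an adjusted p above 0.05. The dashed line marks the median of all listed genes at 1.43; the TIP aquaporins and SWEET1 genes reach farthest to the right, where the value of Unigene0032659 rests on the added 0.1 because NL held no reads.

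All 6 aquaporins were up-regulated, compared with 63.0% of all listed genes. Their median log2 ratio was 3.35, compared with 1.92 for the listed sugar carriers and 1.44 for all listed genes. PIP1-1 (Unigene0031206), a plasma membrane water channel, was the most abundant of all 35 unigenes in both stages. Its RPKM was 205, 193 and 293 in NL and 541, 489 and 615 in L2, and it ranked 148th of the listed genes in NL and 23rd in L2. It rose from 230.4 ± 54.8 to 548 ± 63.4 (SD, n = 3), a log2 change of 1.27 ± 0.23 (SE, limma, adjusted p = 0.00127), the smallest change of the aquaporins. It did not pass with TMM or DESeq2 factors, with adjusted p up to 0.58.

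PIP2-2-like (Unigene0052401) belongs to the PIP2 group, which generally conducts water better than PIP1 and can carry PIP1 to the membrane. Its RPKM was 2.72, 3.30 and 1.85 in NL and 30.6, 22.6 and 41.1 in L2. It rose 12.0-fold, with a log2 change of 3.53 ± 0.32 (SE, limma, adjusted p = 7.28e-05), and passed under every alternative setting run. In both stages it stayed far below PIP1-1, which made up 94.6% of the mean PIP sum in L2.

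The largest fold changes of genes with reads in both stages were those of the tonoplast aquaporins, water channels of the vacuole. TIP2-1 (Unigene0031685) had 4.45, 0.951 and 0.696 in NL and 50.2, 59.1 and 57.2 in L2. The L2 libraries lay close together and the mean rose 27.3-fold, with a log2 change of 5.15 ± 0.60 (SE, limma, adjusted p = 1.75e-04), or 5.92 without NL replicate 1. TIP4-1 (Unigene0029121) had 1.80, 0 and 0.776 in NL and 19.7, 24.1 and 16.7 in L2. It rose 23.5-fold from 12 reads over NL to 377 over L2, at a log2 change of 5.19 ± 0.98 (SE, limma, adjusted p = 0.00164). The size depended on single NL libraries, with 6.08 without NL replicate 1 and 3.96 without NL replicate 2, which had no reads. The sum of both was 0.951 to 6.26 in NL and 69.9 to 83.3 in L2.

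NIP1-1 (Unigene0028617) had 1.65, 1.55 and 2.42 in NL and 12.7, 14.6 and 21.1 in L2, an 8.62-fold rise with a log2 change of 3.03 ± 0.34 (SE, limma, adjusted p = 1.43e-04). NIP5-1 (Unigene0042924), a boric acid channel in Arabidopsis, had 4.13, 4.16 and 1.63 in NL and 10.7, 10.3 and 17.9 in L2, at a log2 change of 2.01 ± 0.44 (SE, limma, adjusted p = 0.00318). The latter did not pass with DESeq2's factors (adjusted p = 0.0641). PIP1-1 took 93.3% to 97.5% of the summed aquaporin RPKM in the NL libraries and 78.9% to 81.4% in the L2 libraries, and the sum was 241 ± 52.3 in NL and 684 ± 76.6 in L2 (SD, n = 3), without overlap.

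Over the 29 listed sugar carriers the summed RPKM was 430, 457 and 437 in NL and 873, 922 and 1134 in L2. The order of the genes changed with the stage. In NL the N3 gene Unigene0033655 (109 ± 25.7), Unigene0043023 (monosaccharide-sensing protein 2, 55.0 ± 3.65), ERD6-like 16 (40.0 ± 15.7) and STP13 (28.1 ± 23.7, SD, n = 3) led. The first lay above the others in every library, while STP13 and ERD6-like 16 overlapped. In L2 ERD6-like 5 (119 ± 29.3), STP13 (116 ± 40.6), polyol transporter 5 (107 ± 90.6) and ERD6-like 16 (85.5 ± 4.17, SD, n = 3) led, and their libraries overlapped.

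The libraries of a stage were not equal for these genes. In L2, replicate 3 held the highest RPKM of 21 of the 35 unigenes (60.0%) and of 40.9% of all listed genes. In NL, replicate 2 held the highest RPKM of 16 of the 34 unigenes with reads (47.1%) and of 33.3% of all listed genes. The coefficient of variation had a median of 33.8% in NL and 25.4% in L2 over unigenes with a mean RPKM of at least 1, compared with 24.7% and 26.8% over all listed genes. L2 replicate 3 also had the highest sum of core histone RPKM, at 1231 compared with 716 and 765 in the other libraries, and its part in these values was not tested.

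Carriers that import sugar against its gradient depend on proton pumps, while enzymes that split or build sucrose change which sugars are present. Of 21 proton pump genes in the table, 10 rose and 11 fell in L2, compared with 63.0% and 36.3% of all listed genes (99.3% called together). Both plasma membrane ATPases were up-regulated, and Unigene0051160 (plasma membrane ATPase 4), the higher of them, rose from 61.6 ± 13.5 to 449 ± 34.2 (SD, n = 3), a log2 change of 2.89 ± 0.21 (SE, limma, adjusted p = 4.57e-05). Of the pumps of internal membranes, 7 of 13 V-type ATPase subunits and 4 of 6 proton-pumping pyrophosphatases were down-regulated. The most abundant pump of NL, the vacuolar pyrophosphatase Unigene0047147, fell from 518 ± 71.2 to 79.5 ± 13.2 (SD, n = 3), a log2 change of -2.70 ± 0.20 (SE, limma, adjusted p = 4.74e-05). The summed RPKM of the plasma membrane ATPases was 52.2 to 96.0 in NL and 621 to 707 in L2, and that of the V-type subunits was 978 to 1050 in NL and 432 to 474 in L2.

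Of 15 enzymes that cleave or make sucrose, 10 rose and 5 fell, close to the 63.0% and 36.3% of all listed genes, and 2 inhibitor genes matched by the word invertase went in opposite directions. As with the carriers, the leading gene changed. The sucrose synthase Unigene0048415 fell from 169.8 ± 26.8 to 51.6 ± 3.67 (SD, n = 3), while sucrose synthase 1 (Unigene0044754) rose from 31.1 ± 3.83 to 139 ± 5.68 (SD, n = 3), with log2 changes of -1.71 and 2.16 (standard errors 0.17 and 0.16, adjusted p = 9.49e-05 and 4.88e-05, limma). A soluble beta-fructofuranosidase (Unigene0044229), an acid invertase named here after its values were seen, had 1.46, 1.47 and 2.52 in NL and 59.9, 57.0 and 92.8 in L2, a log2 change of 5.20 ± 0.31 (SE, limma, adjusted p = 3.45e-05). The summed RPKM of the 15 enzymes was 392 to 428 in NL and 433 to 473 in L2, without overlap, and with the 2 inhibitors it was 415 to 458 in NL and 442 to 483 in L2, with overlap.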

How the data were processed

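RNA of NL and L2 plants was analysed, with 3 libraries per stage. Libraries of the 2 other stages were not analysed here. The authors assembled reads with Trinity and mapped them with Bowtie2, and deposited an RPKM for each library with 4 decimals. They also deposited mean read counts per stage, which are not whole like expected counts but are whole once multiplied by 3. The mean RPKM columns hold 0.001 where all libraries are 0. The authors' log2 ratio, p-value and FDR columns were not used. The tool for counting and the test are not given in the sources used here.

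Reads, library totals and unigene lengths were recovered from the RPKM and mean counts, and all 59302 values above 0 came out whole within 0.05. Stages were compared with limma 3.58.1 (R 4.3.3) with its trend option on log2(RPKM + 0.1) and Benjamini-Hochberg adjustment over 11051 genes. The added 0.1 lowers the fitted change of low genes, while averaging logs can raise it where libraries are uneven. The fitted value and the log2 ratio of mean RPKM were 5.19 and 4.55 for TIP4-1, but 2.66 and 3.02 for STP14. Folds of named unigenes are ratios of mean RPKM unless a floor is given, whereas log2 changes marked limma are fitted values. As the authors had called these genes on the same libraries, the p-values are no independent evidence. Alternatives were other pseudocounts, a filter (RPKM of at least 1 in 3 libraries), the replicate number as a block, edgeR 4.0.16, DESeq2 1.42.0, upper quartile scaling, an absolute log2 ratio of at least 2 and leaving out each library. Scripts were tested on simulated data. The members and lists were chosen with earlier results of these data known, and the marker lists after the values. Families followed words in the annotation. Every unigene is given with its values, and of the partner lists the most abundant gene of each stage.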

Additional observations from a re-analysis of the deposited data

How the results depend on the processing

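The direction of each of the 35 unigenes was the same under all alternatives but for inositol transporter 4 (Unigene0041419), which turned to -0.035 with DESeq2. Of the unigenes, 11 lost their call in DESeq2 beside that one and 9 in edgeR with TMM, and 21 passed in every test run. The scaling factors of both came from the listed genes alone, where their assumption is not met. The number up-regulated was 17 in DESeq2 and 17 at an absolute log2 ratio of at least 2, where no unigene (0 of 5) was down-regulated. By family, DESeq2 and TMM each left 4 of 6 SWEET, 1 of 4 ERD6-like, 5 of 8 polyol and inositol and 1 of 2 PIP genes up-regulated, and DESeq2 left 2 of 3 STP genes, 1 of 2 NIP genes and 0 of 1 monosaccharide-sensing genes. The limit of 2 left 2 ERD6-like, 4 polyol and inositol, 1 PIP and 1 NIP gene and no sucrose carrier, N3 or monosaccharide-sensing gene. The N3 gene Unigene0051234 was up-regulated (1 in place of 0) with edgeR and library totals, log2(RPKM + 1) and the replicate block. Leaving out a library gave 0 to 1 up-regulated N3 genes (1 without L2 replicate 1) and 0 to 1 down-regulated STP genes (0 without NL replicate 3).

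With upper quartile scaling the log2 ratio of summed RPKM was 0.30 for SWEET with N3 (0.81 as deposited), -0.51 for sucrose carriers (-0.01), 1.35 for ERD6-like (1.84), 0.95 for polyol and inositol (1.46), -0.78 for monosaccharide-sensing (-0.28), 0.82 for PIP (1.31), 1.98 for NIP (2.49), 0.65 for all sugar carriers (1.15) and 1.01 for all aquaporins (1.50). As deposited but without the member of the highest mean over all 6 libraries, the ratios in this order were 2.17, 1.65, 1.22, 0.83, 1.49, 3.58, 1.97, 1.50 and 3.67. Leaving out 1 library gave a ratio of 1.70 to 2.74 for STP, the highest without NL replicate 2, and of 4.29 to 5.96 for TIP, the highest without NL replicate 1. As a share of reads, an alternative added after seeing the data, that of sucrose carriers was 0.24. The replicate block changed no other call. Deviations of same-numbered libraries correlated at 0.02 to 0.06, and those of differently numbered libraries at -0.046 to 0.011. All these values are small, and whether the numbers pair the libraries is not settled by them. Members with under 10 reads over NL (2 unigenes) are limited by depth.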

Other observations

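Genes named hexokinase or fructokinase were counted with a list that the word fructokinase widened to phosphofructokinases. Some of them carry chloroplast annotations, and whether they act on imported hexoses was not tested. Of 7 hexokinase and fructokinase genes, 6 were up-regulated and 1 was down-regulated in L2, where 63.0% and 36.3% of all listed genes were, and the summed RPKM was 80.7 to 119.6 in NL and 208 to 229.9 in L2. The most abundant of them in both stages, the fructokinase Unigene0035889, rose from 57.1 ± 16.7 to 149 ± 15.9 (SD, n = 3), a log2 change of 1.42 ± 0.25 (SE, limma, adjusted p = 0.00114). Of the 4 phosphofructokinases 2 were up-regulated and 2 were down-regulated.

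Potassium is a major osmotic solute of plant cells. Of 10 listed potassium channel and transporter genes, 6 rose and 4 fell in L2, close to the 63.0% and 36.3% of all listed genes, and the summed RPKM overlapped, at 90.1 to 93.3 in NL and 82.8 to 108 in L2. Potassium channel in 2 (Unigene0050398), the highest in NL, fell from 28.1 ± 7.64 to 1.01 ± 0.202 (SD, n = 3), a log2 change of -4.65 ± 0.34 (SE, limma, adjusted p = 4.74e-05). A potassium channel subunit beta (Unigene0041699), the highest in L2, rose from 11.6 ± 2.79 to 40.2 ± 6.73 (SD, n = 3), a log2 change of 1.80 ± 0.24 (SE, limma, adjusted p = 3.17e-04).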
